A study of Mus musculus with 22 samples.

Results

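Chemokines and their receptors were followed in mouse bladders exposed to the carcinogen BBN, N-butyl-N-(4-hydroxybutyl)nitrosamine, and in bladders that were not. The genes were chosen by name: every RefSeq mouse symbol made of Ccl, Cxcl, Ccr, Cxcr or Ackr and a number, with Cx3cl1, Cx3cr1, Xcl1 and Xcr1, was taken if a probe for it stood well above its local background on at least 2 of the 22 arrays. Of 67 such symbols 58 had a probe and 50 passed, which is 50 of the 22911 genes with a probe and of the 17404 genes that passed the same filter. The 50 were 32 ligands and 18 receptors, and 15 of them were above background on all 22 arrays. Ackr4, Ccr3 and Cxcr1 were just inside the filter, with 2 arrays each, and Ccl28 was just outside, with 1. Ccl22, Ccl26, Ccr1, Ccr10, Ccr1l1, Ccr4 and Xcr1 were above background on none, and Cxcl11 was among the 9 symbols with no probe.

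RNA came from whole bladders of mice aged 8 months and was hybridised to 1-colour arrays, 1 per sample. Of the BBN groups, 4 carried a Trp53 point mutation, an RFP reporter behind a stop cassette (LSL-RFP) and a tamoxifen-inducible Cre, and were given tamoxifen: Krt5-CreERT2; LSL-RFP; Trp53R270H/+ (n = 3), Krt5-CreERT2; LSL-RFP; Trp53R172H/+ (n = 4), Upk2-CreERT2; LSL-RFP; Trp53R270H/+ (n = 2) and Upk2-CreERT2; LSL-RFP; Trp53R172H/+ (n = 3). The other BBN groups were mice titled Trp53+/- with the genotype Trp53R270H/+, which had no Cre and no tamoxifen (n = 3), and the Cre controls Krt5-CreERT2; LSL-RFP (n = 2) and Upk2-CreERT2; LSL-RFP (n = 2), both with tamoxifen. These 19 bladders had BBN in the drinking water for 24 weeks, and the 3 normal bladders were wild type with neither BBN nor tamoxifen. Krt5 is a keratin of basal urothelial cells and Upk2 a uroplakin of luminal ones, so each driver acts in one epithelial layer, whereas the arrays read every cell of the bladder.

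Several features of the arrays bear on every result. The 3 normal arrays made up a slide of their own, so normal tissue and that slide cannot be told apart, and the normal samples are also labelled as urothelium although the protocol names whole bladders. By Xist and the Y-linked genes 11 of the 22 arrays did not match the sex in their labels, namely all 3 normal arrays and 8 BBN arrays. In the labels 2 pairs of arrays share an animal code (the Upk2-Cre pair and replicates 1 and 2 of the Trp53+/- group), and elsewhere nothing states how the samples were separated, so the p-values measure the spread between these arrays. The share of probes above background ran from 42.4% to 57.2% on the 11 arrays of one scanner, called A here, and from 56.3% to 63.2% on the 11 arrays of the other, B, which read the normal slide, and no spot was saturated. The summed level of 5 smooth muscle markers, of which all were higher by the test (Cnn1 3.75, Des 3.76, Myh11 2.52 and Tagln 2.20 among them), was 6.43 to 9.995 in BBN and 5.51 to 6.44 in normal bladders, while the summed level of 5 luminal urothelial markers was 2.38 to 6.03 in BBN and 9.23 to 9.65 in normal bladders. In bulk RNA fewer cells of a type and less RNA per cell cannot be told apart.

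Chemokines are small secreted proteins that draw leukocytes along concentration gradients by engaging G protein-coupled receptors. CXC chemokines with an ELR motif, such as Cxcl1, Cxcl2, Cxcl3 and Cxcl5, act on Cxcr2 and call in neutrophils, whereas the interferon-inducible Cxcl9 and Cxcl10 act on Cxcr3 of activated T and NK cells. CC chemokines draw mainly monocytes, lymphocytes, dendritic cells and eosinophils, and atypical receptors (Ackr) bind and clear or present chemokines without G protein signalling. Transcription of many of these genes is raised by NF-kappaB and by interferon-activated factors.

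The available promoters of the called ligands of Cxcr2 and Cxcr3 are printed first, because every tested member of both groups was called higher after BBN. As grouped here, these are Cxcl1, Cxcl2, Cxcl3 and Cxcl5 for Cxcr2 and Cxcl9 and Cxcl10 for Cxcr3. Cxcl15 was grouped with other CXC ligands. The windows run from 250 bases before to 50 bases after the start of the gene (RefSeq, GRCm38.p6, each on the gene's strand, 5′ to 3′). Capitals mark matches on either strand to an NF-kappaB motif (GGG, any 2 bases, TTTCC) or to a motif of interferon-regulated factors (GAAA, any 2 bases, GAAA). Cxcl5, which changed most, had no promoter in the set searched and is named only.
Cxcl1, chr5:90890995-90891294, plus strand: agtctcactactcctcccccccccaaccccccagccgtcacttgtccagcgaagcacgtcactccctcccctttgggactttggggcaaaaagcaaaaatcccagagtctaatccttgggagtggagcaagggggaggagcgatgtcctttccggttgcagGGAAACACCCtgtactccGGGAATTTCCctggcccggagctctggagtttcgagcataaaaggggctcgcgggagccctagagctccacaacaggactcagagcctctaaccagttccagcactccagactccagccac
Cxcl2, chr5:90903649-90903948, plus strand: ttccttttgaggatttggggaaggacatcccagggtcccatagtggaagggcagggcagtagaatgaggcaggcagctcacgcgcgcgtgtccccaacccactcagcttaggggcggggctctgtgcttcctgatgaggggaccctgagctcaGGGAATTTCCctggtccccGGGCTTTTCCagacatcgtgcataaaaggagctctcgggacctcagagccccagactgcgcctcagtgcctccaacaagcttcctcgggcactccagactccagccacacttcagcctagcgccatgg
Cxcl3, chr5:90785851-90786150, plus strand: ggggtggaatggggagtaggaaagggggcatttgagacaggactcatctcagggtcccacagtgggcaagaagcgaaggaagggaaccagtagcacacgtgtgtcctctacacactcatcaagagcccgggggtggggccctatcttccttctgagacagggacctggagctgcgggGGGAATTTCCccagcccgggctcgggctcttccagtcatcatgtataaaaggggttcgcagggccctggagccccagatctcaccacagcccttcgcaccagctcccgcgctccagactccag
Cxcl9, chr5:92328030-92328329, minus strand: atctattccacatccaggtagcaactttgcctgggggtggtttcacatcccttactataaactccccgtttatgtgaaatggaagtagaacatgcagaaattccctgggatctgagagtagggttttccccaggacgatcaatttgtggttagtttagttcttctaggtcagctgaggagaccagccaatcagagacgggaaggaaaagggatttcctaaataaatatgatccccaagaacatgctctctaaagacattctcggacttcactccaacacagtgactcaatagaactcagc
Cxcl10, chr5:92348840-92349139, minus strand: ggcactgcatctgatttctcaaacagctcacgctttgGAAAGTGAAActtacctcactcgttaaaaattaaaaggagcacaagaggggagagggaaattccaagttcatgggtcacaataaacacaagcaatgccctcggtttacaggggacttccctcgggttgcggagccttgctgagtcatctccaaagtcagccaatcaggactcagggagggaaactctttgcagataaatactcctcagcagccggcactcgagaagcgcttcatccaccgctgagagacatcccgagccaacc
Counted from the gene's start, the NF-kappaB motif began at -89 (reverse strand) and -71 in Cxcl1, at -97 and -78 in Cxcl2 and at -73 in Cxcl3. The interferon-related motif began at -213 in Cxcl10, and neither run of letters was found in the Cxcl9 window. Sites with other letters were not sought. The lack of a match, as for NF-kappaB in Cxcl10, therefore does not show that a site is absent. The NF-kappaB motif occurred in 1.63% and the interferon-related motif in 3.44% of 32851 RefSeq promoters of 300 bases. Among the 38 of the 50 genes with a promoter in the table, 6 held the NF-kappaB motif and 3 the interferon-related motif, and among the 14 of those called higher after BBN 4 and 1 did.

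BBN bladders had higher levels of the ligands of Cxcr2 and Cxcr3, of several CC ligands and of 5 receptors than normal bladders, and lower levels of Cxcl14, Cxcl12 and Ackr1. Of the 50 genes 20 were higher in BBN bladders at an adjusted p of at most 0.05 (limma over all 17404 genes, the 7 BBN groups weighted alike against normal), against a background of 23.7% of all genes called higher. Only 3 were lower, against a background of 19% called lower (42.7% either way). Those higher were 15 ligands and 5 receptors, 40% of the members, and those lower were 2 ligands and 1 receptor, 6% of the members. All 19 BBN arrays lay above all 3 normal arrays for 12 members (background 13.6%) and below them for 2 (background 12%). The median difference was 1.17 on the log2 scale over the 50 members and 0.13 over all tested genes, and with quantile normalization it was 0.71 over the members and -0.01 over all genes. Differences here are log2 of BBN over normal and levels are log2 of the processed signal minus the array's 75th percentile, so that 0 is the 75th percentile of an array. Levels of different probes are not comparable with each other.

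**Figure D1:**
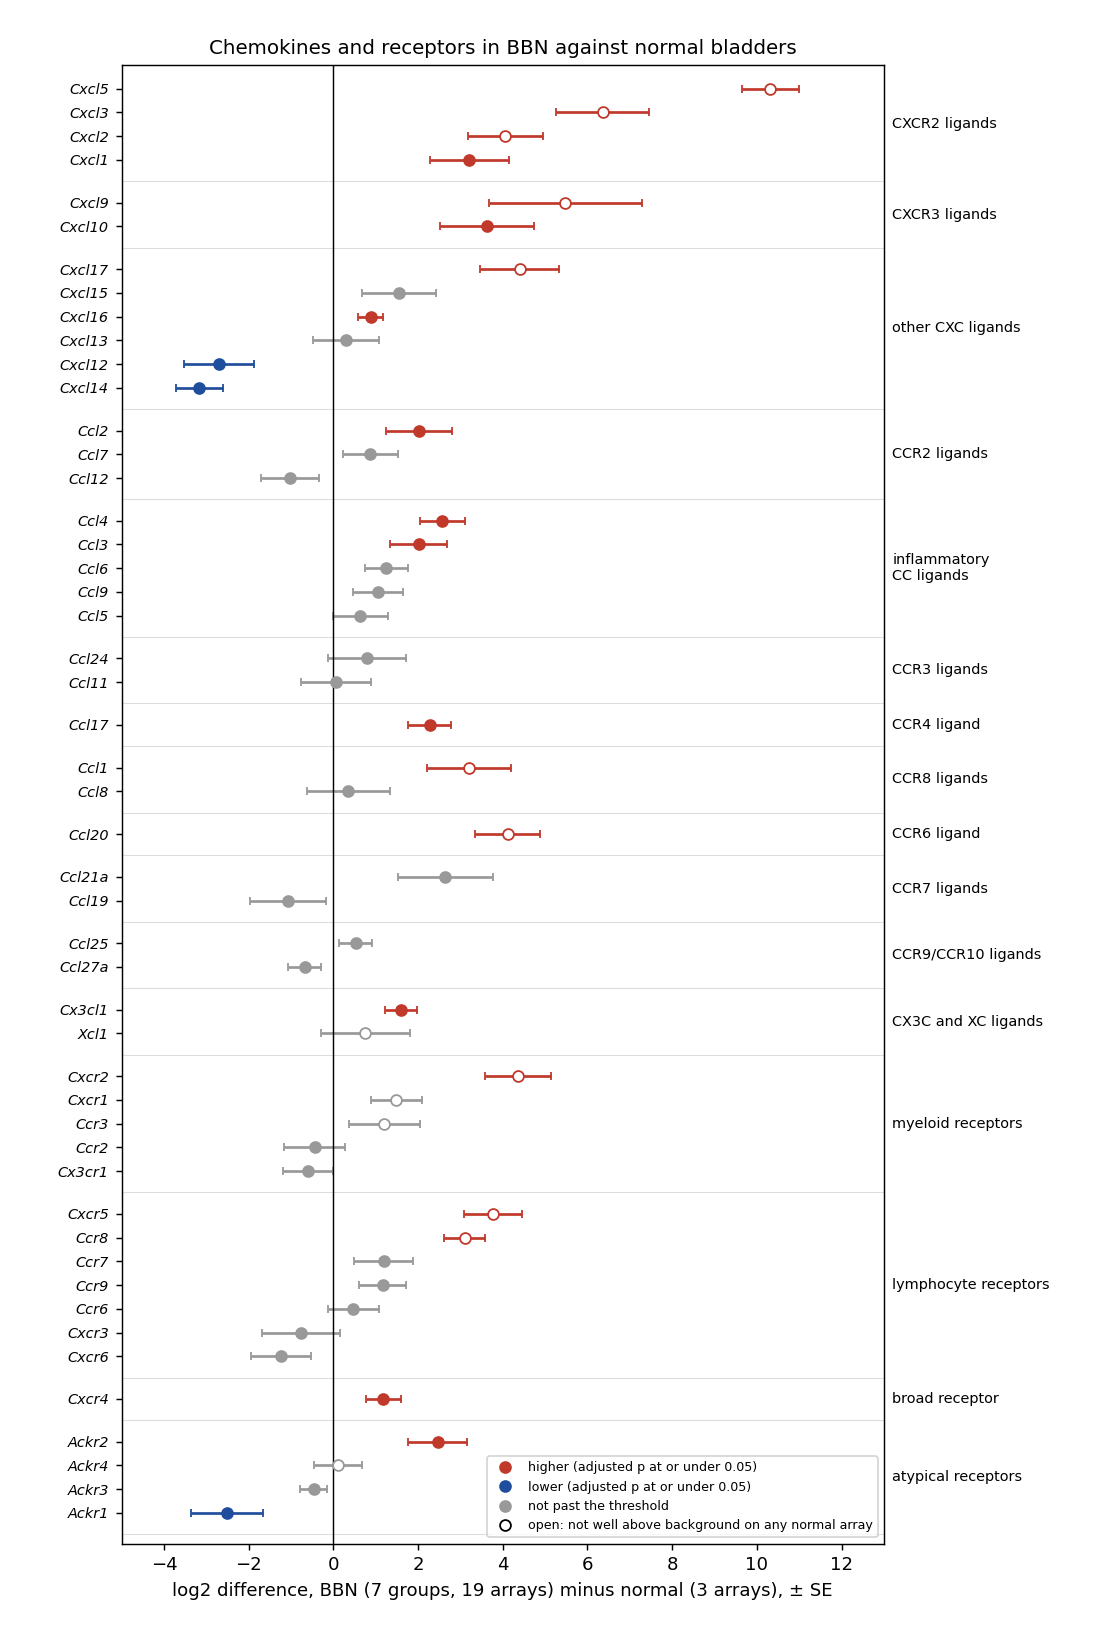
Log2 difference of BBN minus normal bladders with its standard error for the chemokine and receptor genes reported, arranged by role; open symbols mark genes not well above background on any normal array. Cxcl5 and Cxcl3 have the largest fitted differences, 10.32 and 6.35, and Cxcl14, Cxcl12 and Ackr1 lie on the lower side at -3.16, -2.70 and -2.51.

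For 14 of the 50 members, and for 10 of the 20 called higher, no normal array rose above background, so that their normal level is only a bound. The filter admits a gene that is above background in BBN bladders alone, so the counts above describe the members and support nothing further; of the 36 members above background on at least 1 normal array 10 were called higher and 3 lower, against 19.3% and 21.3% of all genes above background there. For genes with a bound the fold is given as at least the BBN mean against, per normal array, the higher of its lowest signal well above background and the probe's own. The BBN mean holds every BBN array of both scanners, also those not above background, whereas all normal arrays were on scanner B. For genes above background on only part of the BBN arrays, such as Ccl1, Cxcr5 and Ccr8, the fold is therefore no strict bound. With the slide as a random block 11 members were called higher and 1 lower (all genes 16.5% higher and 13.3% lower), and with the scanner as a block 14 and 1 (all genes 14.7% higher and 15.2% lower). The same fit on the authors' deposited normalized table, where 32 of the members were tested, called 12 higher and 3 lower (all its genes 20.6% higher and 22.2% lower). Using scanner B alone, 20 were higher and 4 lower (all genes 25.6% higher and 22.2% lower). None of the 23 called members changed direction in any alternative. Without the 8 BBN arrays that did not match their labelled sex Cxcl9, Ccl2, Ccl3, Cxcr4 and Ackr1 missed the threshold; the 3 normal arrays could not be left out.

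The ligands grouped here under Cxcr2 (Cxcl1, Cxcl2, Cxcl3 and Cxcl5) all rose. Cxcl5, an ELR chemokine of epithelial cells, ranged from 1.01 to 4.82 with a median of 3.04 over 19 BBN arrays, against -7.44, -7.16 and -7.67 on the 3 normal arrays. Every BBN array was above every normal array. The difference was 10.32 ± 0.68 (SE; limma adjusted p = 4.31e-08), at least 344-fold higher. Cxcl3 ranged from -7.55 to 1.43 with a median of -0.92 in BBN and was -7.69, -7.41 and -7.93 in normal bladders. All but 1 BBN array were above the normal ones, the exception being Upk2-Cre replicate 1 at -7.55. The difference was 6.35 ± 1.11 (adjusted p = 0.000299), at least 20.5-fold higher. Cxcl2 ranged from -5.73 to -0.67 with a median of -3.09 in BBN and was -7.61, -7.30 and -6.33 in normal bladders, without overlap. Its difference was 4.06 ± 0.88 (adjusted p = 0.00162), at least 5.80-fold higher. With the scanner as a block it was 2.38 (adjusted p = 0.00832). Cxcl1, also a neutrophil attractant, differed by 3.21 ± 0.93 (adjusted p = 0.0108), and its BBN range of -5.15 to 0.12 overlapped the normal range of -7.21 to -4.56. The Cxcl1 call was lost in 4 alternatives, when the slide was a random block (adjusted p = 0.0528), when scanners were blocked (0.0592), without the 3 Upk2-CreERT2 groups (0.0503) and without normal replicate 2.

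These genes lie in 1 cluster on chromosome 5 (GRCm38.p6, chr5:90759298-90905938) together with Cxcl15 (lungkine), which differed by 1.55 (adjusted p = 0.160). Of the 5 members in the cluster 4 were called higher, against 23.7% of all genes. Cxcl5, Cxcl3 and Cxcl2 were above background on no normal array and could pass the filter through BBN arrays alone. The count therefore shows nothing further about the cluster. Between Cxcl5 and Cxcl3 lie Ppbp and Pf4, platelet chemokines whose symbols fall outside the naming rule. Ppbp (chr5:90768518-90770063), whose product also yields a Cxcr2 ligand, ranged from 2.11 to 6.90 in BBN and from -5.46 to -4.49 in normal bladders and differed by 10.34 ± 0.70 (adjusted p = 5.91e-08). Pf4, 1 gene away, differed by -0.27 (adjusted p = 0.781).

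**Figure D2:**
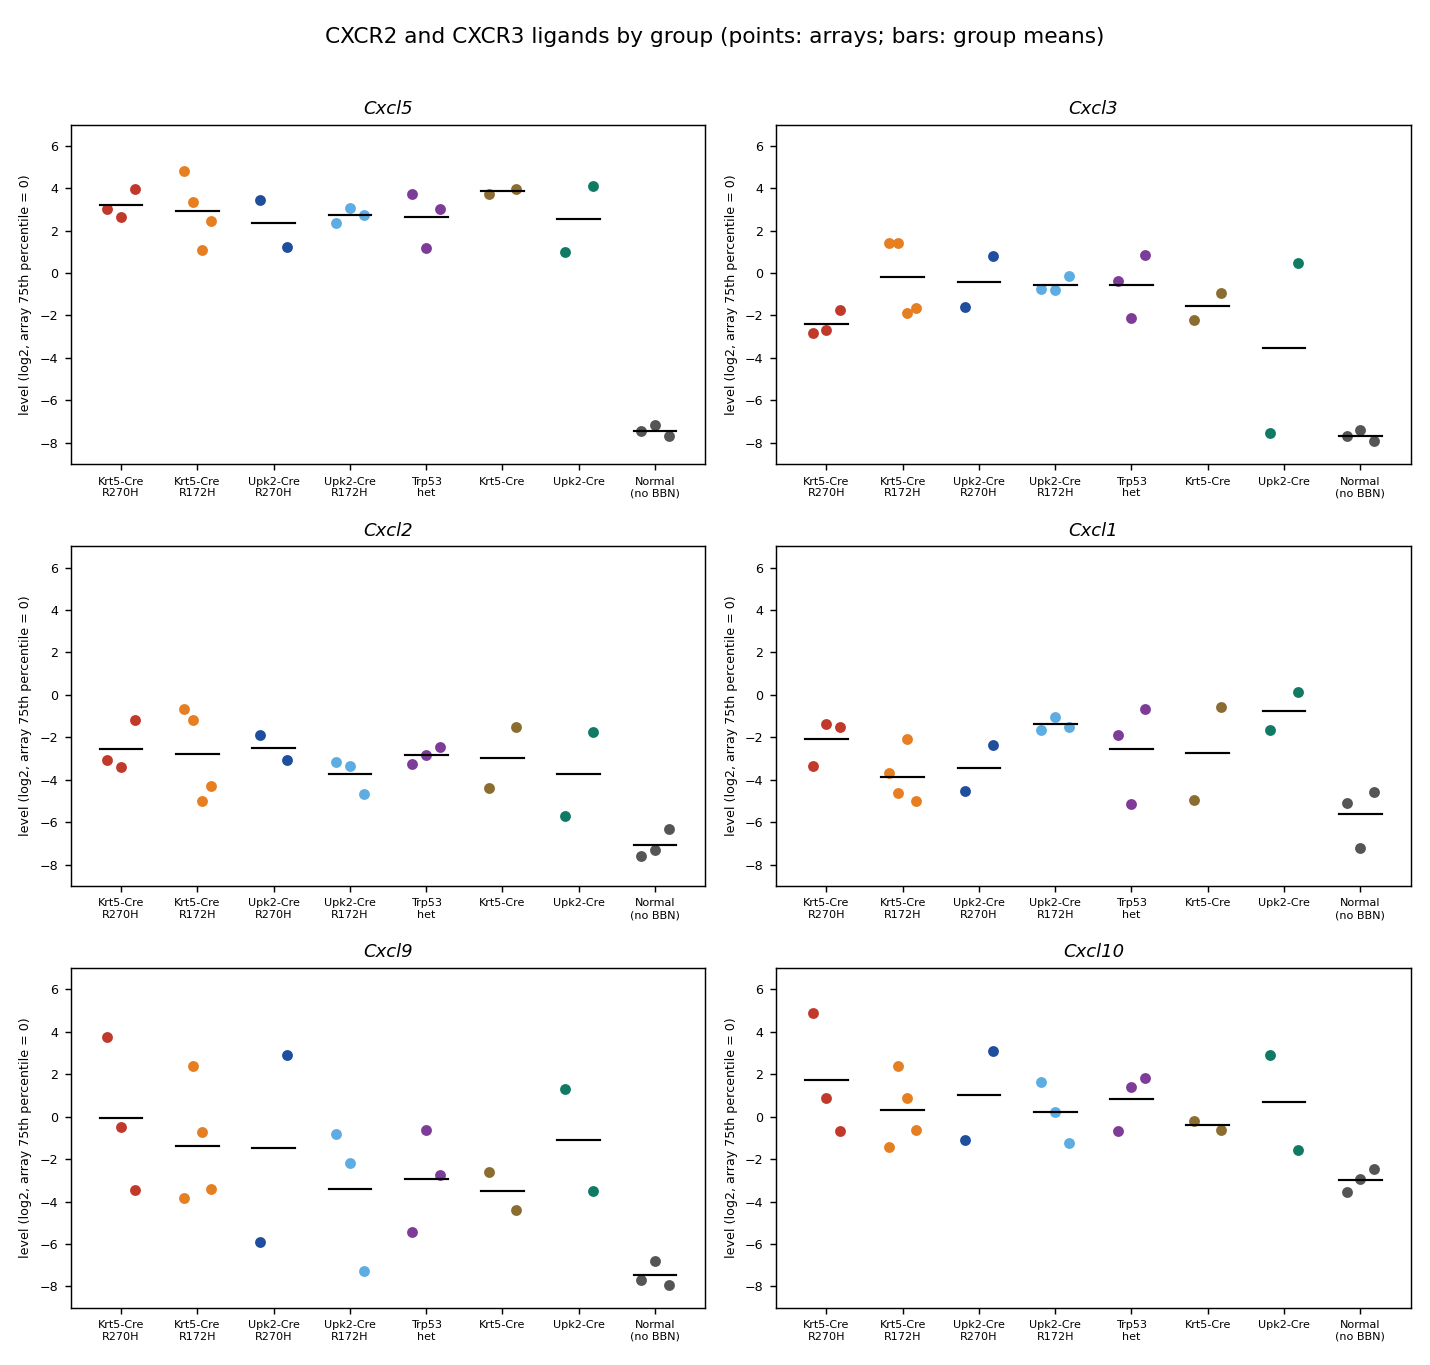
Level of Cxcl5, Cxcl3, Cxcl2, Cxcl1, Cxcl9 and Cxcl10 on each array by group (points, arrays; bars, group means; log2 with the array's 75th percentile at 0). Cxcl5 is at 1.01 or higher on all 19 BBN arrays and at -7.16 or lower on the 3 normal arrays, whereas Cxcl9 spans -7.25 to 3.77 within the BBN groups.

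Cxcr2 (chr1:74153994-74161246), the receptor of these ligands on neutrophils, rose as well. It ranged from -4.48 to -0.31 with a median of -2.93 in BBN and was -6.95, -6.09 and -7.93 in normal bladders. The groups did not overlap, and the difference was 4.36 ± 0.78 (adjusted p = 0.000381), at least 7.02-fold higher. With the scanner as a block it was 3.35 (adjusted p = 0.00400). Cxcr1, the other receptor for ELR chemokines, was above background on 2 arrays and differed by 1.49 (adjusted p = 0.0525). Of 7 neutrophil markers tested 4 were higher, namely S100a9 by 8.39, S100a8 by 6.72, and Retnlg and Fpr1, which no normal array showed above background, at least 9.13-fold and at least 3.44-fold. S100a8 and S100a9 are also made by keratinocytes, and Mpo, a granule enzyme, was lower by the test (-1.78, adjusted p = 0.00914). The summed level of the 7 markers was 5.56 to 8.30 in BBN and 5.24 to 6.28 in normal bladders. In normal bladders Csf3r averaged 5.84 and the other markers -1.09 or lower, so the sum there follows Csf3r, which was not called (-0.25). The part of the neutrophil markers in the Cxcr2 result was not tested.

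Both measured Cxcr3 ligands rose, and both lie on chr5:92321331-92348889. Cxcl9 ranged from -7.25 to 3.77 with a median of -2.60 in BBN and was -7.68, -6.79 and -7.92 in normal bladders. All but 1 BBN array were above the normal ones, the exception being Upk2-CreERT2; LSL-RFP; Trp53R172H/+ replicate 3 at -7.25, and the difference was 5.48 ± 1.81 (adjusted p = 0.0224), at least 12-fold higher. This call was lost in 8 alternatives (adjusted p up to 0.0897), leaving out any single normal array included. Cxcl10 ranged from -1.57 to 4.91 with a median of 0.25 in BBN and was -3.56, -2.95 and -2.48 in normal bladders, without overlap. Its difference was 3.62 ± 1.11 (adjusted p = 0.0156), a call lost in 4 alternatives. With the slide as a random block neither Cxcl9 (adjusted p = 0.0897) nor Cxcl10 (0.0705) passed. Krt5-CreERT2; LSL-RFP; Trp53R270H/+ replicate 1 had the highest value of both genes, 3.77 for Cxcl9 and 4.91 for Cxcl10. Their receptor Cxcr3, on activated T cells, differed by -0.77 (adjusted p = 0.516). Of 7 T cell markers 3 were higher (Cd3e by 2.23, Cd4 by 1.15 and Foxp3, above background on no normal array, at least 4.07-fold) and none lower, and Prf1, the pore-forming protein of cytotoxic cells, was higher by 1.33 (adjusted p = 0.0243), the only 1 of 3 NK markers to be called.

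Of 6 further CXC ligands 2 rose, 2 fell and 2 were not called. Cxcl17 (chr7:25400053-25412886), a mucosal chemokine, ranged from -6.29 to 1.23 with a median of -3.12 in BBN and was -7.59, -7.31 and -7.84 in normal bladders, without overlap. It differed by 4.40 ± 0.93 (adjusted p = 0.00135), at least 5.62-fold higher. Cxcl16, a membrane-bound chemokine and scavenger receptor, differed by 0.88 (adjusted p = 0.0218; lost in 6 alternatives), and its receptor Cxcr6, found on resident T cells, by -1.23 (adjusted p = 0.169). Cxcl14 (chr13:56288643-56296811), which epithelium and stroma make in quantity in normal tissue, ranged from 0.64 to 4.20 with a median of 2.31 in BBN and was 5.87, 5.31 and 5.58 in normal bladders. All BBN arrays were below all normal ones, and the difference was -3.16 ± 0.56 (adjusted p = 0.000354). A second Cxcl14 probe, for a predicted transcript and above background on 8 arrays, differed by 2.25, and the mean over both probes by -0.46 (adjusted p = 0.445). Cxcl12 (chr6:117168535-117181368), the stromal ligand of Cxcr4, ranged from -3.71 to 2.21 with a median of -0.08 in BBN and was 2.74, 2.41 and 2.46 in normal bladders, likewise without overlap. It differed by -2.70 ± 0.82 (adjusted p = 0.0142), and a second probe by -2.36. The call on Cxcl12 was lost with the slide as a random block (adjusted p = 0.0530), when the scanner was taken as a block (0.117) and in 3 other alternatives. Of 5 fibroblast markers 4 were lower (Pi16 -3.40, Pdgfra -2.80, Col1a1 -2.39 and Dcn -2.28), with a summed level of 4.15 to 7.82 in BBN and 8.25 to 8.57 in normal bladders; their part in the Cxcl12 and Cxcl14 results was not tested. Cxcl13, the B cell attractant, differed by 0.30 (adjusted p = 0.773).

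Among the CC ligands Ccl20, Ccl1, Ccl4, Ccl17, Ccl3 and Ccl2 rose. Ccl20 (chr1:83116766-83119167), the ligand of Ccr6 made by epithelium, ranged from -7.27 to -1.59 with a median of -3.49 in BBN and was -7.18, -7.42 and -7.94 in normal bladders. Upk2-CreERT2; LSL-RFP; Trp53R172H/+ replicate 1, at -7.27, was the BBN array that fell within the normal range. The difference was 4.11 ± 0.76 (adjusted p = 0.000506), at least 4.15-fold higher. With the scanner as a block it was 2.85 (adjusted p = 0.00362). Ccl1, a ligand of Ccr8, was above background on 9 BBN arrays and no normal one and differed by 3.20 (adjusted p = 0.0169), at least 2.11-fold higher. Ccl17, a ligand of Ccr4 made by dendritic cells, differed by 2.28 (adjusted p = 0.00219) with all 19 BBN arrays above all normal ones. The macrophage chemokines Ccl4 and Ccl3 differed by 2.58 (adjusted p = 0.00104) and 2.02 (adjusted p = 0.0246), and their annotated spans overlap on chromosome 11. Ccl2, the main monocyte attractant, differed by 2.02 (adjusted p = 0.0468), a call lost in 23 of 38 alternatives. The calls on Ccl3 and Ccl1 were lost in 7 alternatives each, among them quantile normalization, the slide as a random block (adjusted p = 0.0696 for Ccl3 and 0.0736 for Ccl1) and the scanner as a block (0.0783 and 0.0671).

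No other CC ligand passed the test. Ccl21a, a lymphatic ligand of Ccr7 whose probe may read near-identical copies, differed by 2.65 (adjusted p = 0.0665) and spread from -2.31 to 5.69 in BBN and from -4.86 to -0.30 in normal bladders. Ccl19, the other Ccr7 ligand, differed by -1.07. The myeloid ligands Ccl6 and Ccl9 differed by 1.25 (adjusted p = 0.0570) and 1.06, and Ccl5, made by T cells, by 0.64. The Ccr2 ligands Ccl7 and Ccl12 differed by 0.88 and -1.03, and Ccl8 by 0.36. The eosinophil attractants Ccl24 and Ccl11 differed by 0.79 and 0.06, and Ccl25 and Ccl27a, ligands of Ccr9 and Ccr10, by 0.52 and -0.67. In the chromosome 11 block from Ccl2 to Ccl1 (chr11:82035577-82179812) 2 of 6 members were called higher, and in that from Ccl5 to Ccl4 (chr11:83525778-83664683) 2 of 5. Of all genes 23.7% were called higher, so these small counts show nothing particular to the blocks.

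The transmembrane chemokine Cx3cl1 (fractalkine) rose by 1.59 (adjusted p = 0.00296; 0.0597 within scanner B) with no overlap, whereas its monocyte receptor Cx3cr1 differed by -0.59 (adjusted p = 0.429) and Xcl1, a T and NK cell ligand, by 0.76. Besides Cxcr2 the receptors that rose were Ccr8, Cxcr5, Cxcr4 and Ackr2. Ccr8 (chr9:120092133-120094906), a receptor of regulatory T cells, was above background on 13 BBN arrays and no normal one, ranged from -5.95 to -2.87 in BBN against -7.70 to -6.39 in normal bladders, and differed by 3.10 ± 0.48 (adjusted p = 0.000111), at least 2.79-fold higher. Cxcr5, the B and follicular helper T cell receptor for Cxcl13, ranged from -8.04 to -1.22 with a median of -5.02 in BBN and was -7.74, -7.46 and -7.98 in normal bladders, with 18 BBN arrays above and 1 below all normal arrays. It differed by 3.78 ± 0.68 (adjusted p = 0.000410), at least 2.52-fold higher, and by 2.27 (adjusted p = 0.0398) without the 3 Upk2-CreERT2 groups. Cxcr5 was above background on 9 BBN arrays, 7 with Upk2-CreERT2, 2 with Krt5-CreERT2 and 0 of the Trp53+/- group, and on no normal array. The value without the Upk2-CreERT2 groups therefore compares mostly signals that were not above background on either side. Cxcr4 differed by 1.18 (adjusted p = 0.0300), a call lost in 9 alternatives.

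Of the atypical receptors Ackr2, which degrades inflammatory CC chemokines, rose by 2.46 (adjusted p = 0.00990), a call lost with the slide as a random block (0.0526) and without normal replicate 3. Ackr1 (chr1:173331886-173333503), the chemokine receptor of venular endothelium, ranged from -5.03 to 0.15 with a median of -2.04 in BBN and was 0.60, 0.01 and 0.09 in normal bladders. It was below the normal range on 18 of 19 BBN arrays and differed by -2.51 ± 0.84 (adjusted p = 0.0246), a call lost in 7 alternatives. Of 5 endothelial markers Tek was lower (-2.51) and 4 were not called, with a summed level of 0.97 to 5.31 in BBN and 2.84 to 3.10 in normal bladders. Ackr3 and Ackr4 differed by -0.46 and 0.11. The other receptors described here were not called, with differences of 1.21 for Ccr3 of eosinophils, 1.19 for Ccr7 of naive T and dendritic cells, 1.16 for Ccr9 of gut-homing T cells, 0.48 for Ccr6 and -0.44 for Ccr2, the monocyte receptor.

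**Figure D3:**
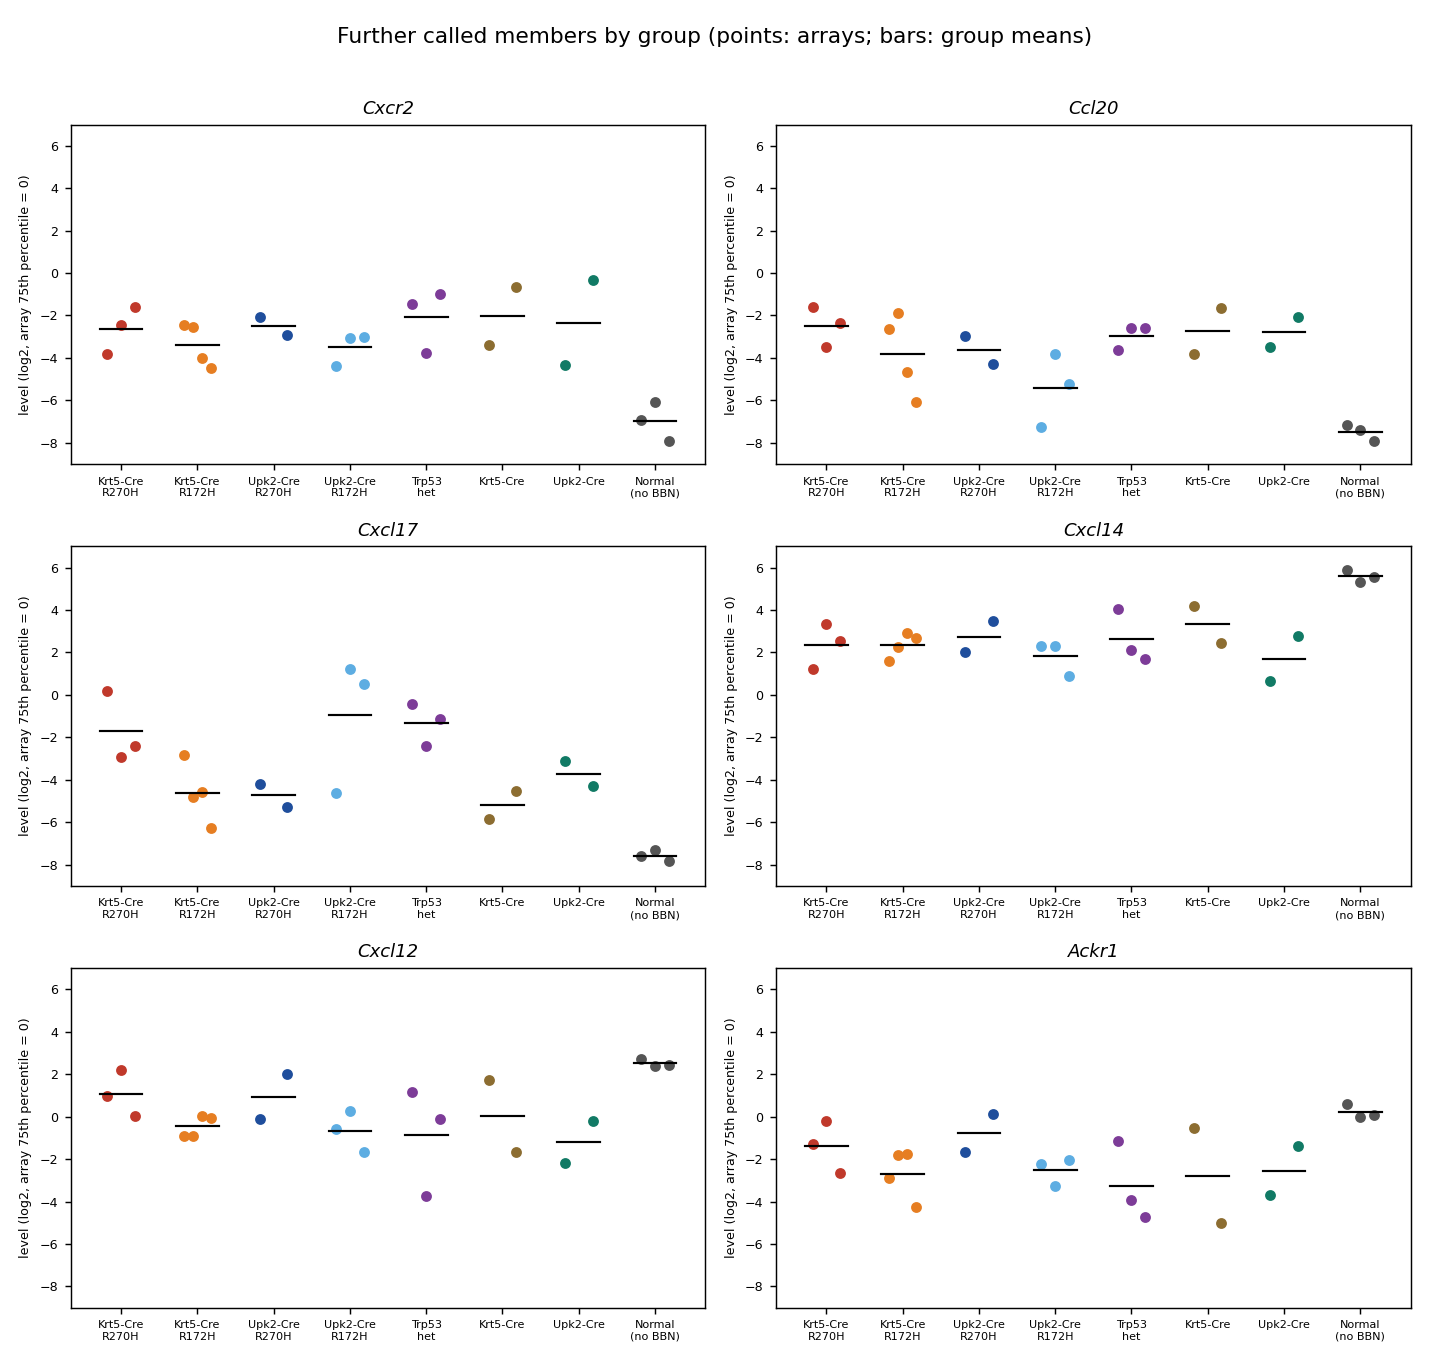
Level of Cxcr2, Ccl20, Cxcl17, Cxcl14, Cxcl12 and Ackr1 on each array by group (points, arrays; bars, group means; log2 with the array's 75th percentile at 0). Cxcr2 and Cxcl17 are lowest and Cxcl14 and Cxcl12 highest on the 3 normal arrays, without overlap with the 19 BBN arrays.

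Genes upstream and downstream of chemokines were followed in lists written from general knowledge. Their counts, and those of the cell type markers here and above, stand beside 23.7% of all genes called higher and 19% lower. Of 15 inducers tested 9 were higher and none lower. Among those higher were the cytokines Il1b (4.64) and Tnf (2.20) and the transcription factor Stat3 (1.43). The cytokine Csf2 was higher too (at least 2.03-fold), above background on 9 BBN arrays and no normal one. The list median was 1.43 against 0.13 over all genes. Above background on no normal array were 3 of the 15, which could thus pass the filter through BBN arrays alone. Ifng, above background on no normal array, was not called (adjusted p = 0.132). Of 12 genes of chemokine signalling and related ligands 3 were higher, namely Ppbp, the signal terminator Rgs1 (2.57) and the G protein subunit Gnai2 (1.14), and the kinase Ptk2b was lower (-0.86). Markers of other cell types were called as well. Of 8 macrophage markers Cd68 was higher (1.31) and Cd163 lower (-2.79), of 6 dendritic markers Itgax (1.56) and Zbtb46 (1.23) were higher and Cd209a (-4.11) and Clec9a (-1.74) lower, the B cell markers Ms4a1, Cd79a and Cd79b were not called, and of 3 basal urothelial markers Krt14 (7.97) and Krt5 (1.87) were higher. Of 3 lymphatic markers Prox1, above background on 7 BBN arrays and no normal one, was higher (at least 1.59-fold). Of 5 luminal markers 4 were lower, Upk3a by -9.02.

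Between BBN groups no member passed the test in any comparison, and few genes of the array did. At an unadjusted p under 0.05 the same limma tests counted 1 to 5 of the 50 members, and 578 to 1708 of all genes (3.32% to 9.81%). Both counts were lowest for the difference of mutant effects between drivers and highest for R270H against R172H. Krt5 or Upk2 mutants are the bladders of that Cre driver with either Trp53 mutation, and Krt5-Cre and Upk2-Cre are the drivers alone. For the Krt5 mutants (7 arrays) against Krt5-Cre (2 arrays) the background was 0.0115% of genes called. The members of smallest p were Ccl7, 2.17 ± 0.84 (adjusted p = 0.943), and Ccl2, 2.57 ± 1.01 (adjusted p = 0.943). Ccl7 was -0.16, 0.41, -0.48, -1.19, -0.64, -1.32 and -0.40 in the mutants and -0.58 and -4.74 in Krt5-Cre, where replicate 2 was the low array. Within scanner A, which holds that replicate, the Ccl7 difference was 4.33, and within scanner B it was -0.29. Ccl2 was -0.22 to 2.69 in the mutants and -0.32 and -2.10 in Krt5-Cre, a difference of 3.51 within scanner A and 1.25 within scanner B. Each scanner held 1 Krt5-Cre array, so every within-scanner value here rests on that array.

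For the Upk2 mutants (5 arrays) against Upk2-Cre (2 arrays, 1 animal code) the background was 0.00575%. Ccl6, a myeloid chemokine, was 3.35, 2.04, 1.92, 2.41 and 1.59 in the mutants and 0.31 and 0.57 in Upk2-Cre. The arrays did not overlap, and the difference was 1.90 ± 0.68 (adjusted p = 0.777), 2.13 within scanner A and 1.67 within scanner B. Ccl9, its neighbour on chromosome 11, differed by 1.71 (adjusted p = 0.788) and was -0.25 to 1.78 in the mutants and -1.63 and -0.21 in Upk2-Cre, a difference of 1.43 within scanner A and 1.99 within scanner B. Scanner A held the R270H mutants and Upk2-Cre replicate 2, and scanner B the R172H mutants and Upk2-Cre replicate 1. Each within-scanner value of both genes therefore sets 1 allele against 1 array. The test of whether the mutant effect differed between drivers (background 0.0%) gave no call, with Ccl6 at -2.15 and Ccl1 at 3.17 the members of smallest p (adjusted p = 0.998 for both).

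The Trp53+/- arrays against the 4 Cre control arrays (background 0.0%) differed most in Cxcl17, by 3.14 ± 1.13 (adjusted p = 0.811). Cxcl17 was -0.42, -2.39 and -1.14 in Trp53+/- and -5.86, -4.52, -3.12 and -4.31 in the Cre controls, without overlap, and the difference was 2.65 within scanner A and 4.07 within scanner B. Scanner B held replicate 1 alone of the Trp53+/- arrays. That replicate shares an animal code with replicate 2 on scanner A, and the Upk2-Cre arrays share one across the scanners. The within-scanner values may therefore not be independent. For R270H against R172H (background 0.0%), Ccl24 differed by 2.66 ± 0.88 (adjusted p = 0.321) and Ccl20 by 1.58 (adjusted p = 0.494). Ccl24 was 0.67, -0.08, -2.62, -0.01 and 1.11 in R270H bladders and -5.02, -0.51, -0.84, -3.13, -2.37, -1.33 and -5.53 in R172H bladders. The arrays overlapped, and slide 2 and scanner A, where both alleles were present, gave differences of 2.26 and 2.58. All R270H arrays were read on scanner A, but of the R172H arrays only Krt5-CreERT2 replicates 1 and 2, at -5.02 and -0.51 for Ccl24. The other R172H arrays were on scanner B, so allele and scanner are largely confounded, and wholly so with Upk2-CreERT2. Ccl20 turned to -0.13 with slides and to -0.011 with scanners blocked. The moderated F-test over the 7 BBN groups (background 0.0%) had its smallest member p at Cxcr5 (adjusted p = 0.380), followed by Cxcl17 (adjusted p = 0.666).

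Cxcr5 was the member of smallest p between the Cre drivers. In the Krt5 mutants against the Upk2 mutants (background 0.00575%) it differed by -3.62 ± 0.65 (adjusted p = 0.324), with -8.04 to -3.57 in the Krt5 mutants and -2.51 to -1.22 in the Upk2 mutants. Ccr6, the receptor of Ccl20, was second at 1.78 (adjusted p = 0.886), with 2.29 within scanner A and 0.08 within scanner B. Against the Cre controls the Trp53+/- bladders, at -7.37, -3.17 and -6.11, differed in Cxcr5 by -1.94 (adjusted p = 0.978), and the controls were at -5.29 and -5.11 with Krt5-CreERT2 and at -1.56 and -2.48 with Upk2-CreERT2. A comparison of all Upk2-CreERT2 arrays with all Krt5-CreERT2 arrays was added after these values were seen, and it shares arrays with the 2 others. Cxcr5 averaged -1.91 ± 0.47 on 7 Upk2-CreERT2 arrays, mutant or not, and -5.53 ± 1.24 on 9 Krt5-CreERT2 arrays (SD). It was the 1 member whose arrays did not overlap between drivers, as happened for 0.0172% of all genes.

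The difference was 3.47 ± 0.57 (adjusted p = 0.213, background 0.0%), ranked 1 of 17404 genes by p, and the second member was Ccr6 (-1.92, adjusted p = 0.656). For Cxcr5 it was 2.72 within scanner A and 5.01 within scanner B. Cxcr5 passed in some alternatives only, with an adjusted p of 0.00365 with quantile normalization, 0.0400 with slides and 0.0290 with scanners blocked. Among the fits that leave out 1 array it passed only without Trp53+/- replicate 2 (0.0149). That array is of neither driver and enters only through the shared estimate of spread. Cxcr5 lies at chr9:44511787-44526444, 57.02 kb from Upk2 (chr9:44452715-44454767). The next genes by p, in this order, were Bcl9l, 27.97 kb from Upk2 (0.84), and Foxr1, 11.85 kb from it (2.11), both at adjusted p = 0.301 and both higher in Upk2-CreERT2 bladders though their arrays overlapped between drivers. The annotated ends of Bcl9l and Cxcr5 overlap. Upk2 itself differed by 0.37 (adjusted p = 0.971), and 11 other tested neighbours by -0.21 to 0.33. These values were looked up because of their position, after Cxcr5 had been seen.

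B cell markers were compared between the drivers, and none of the 3 given here was called. In Upk2-CreERT2 against Krt5-CreERT2 bladders Ms4a1 differed by -2.86 (adjusted p = 0.333), Cd79b by -1.06 and Cd79a by -0.79, and Ms4a1 and Cd79a were above background on none of the 7 Upk2-CreERT2 arrays. The site of the CreERT2 insertion is not given in the sources used here, and its part in the result was not tested.

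**Figure D4:**
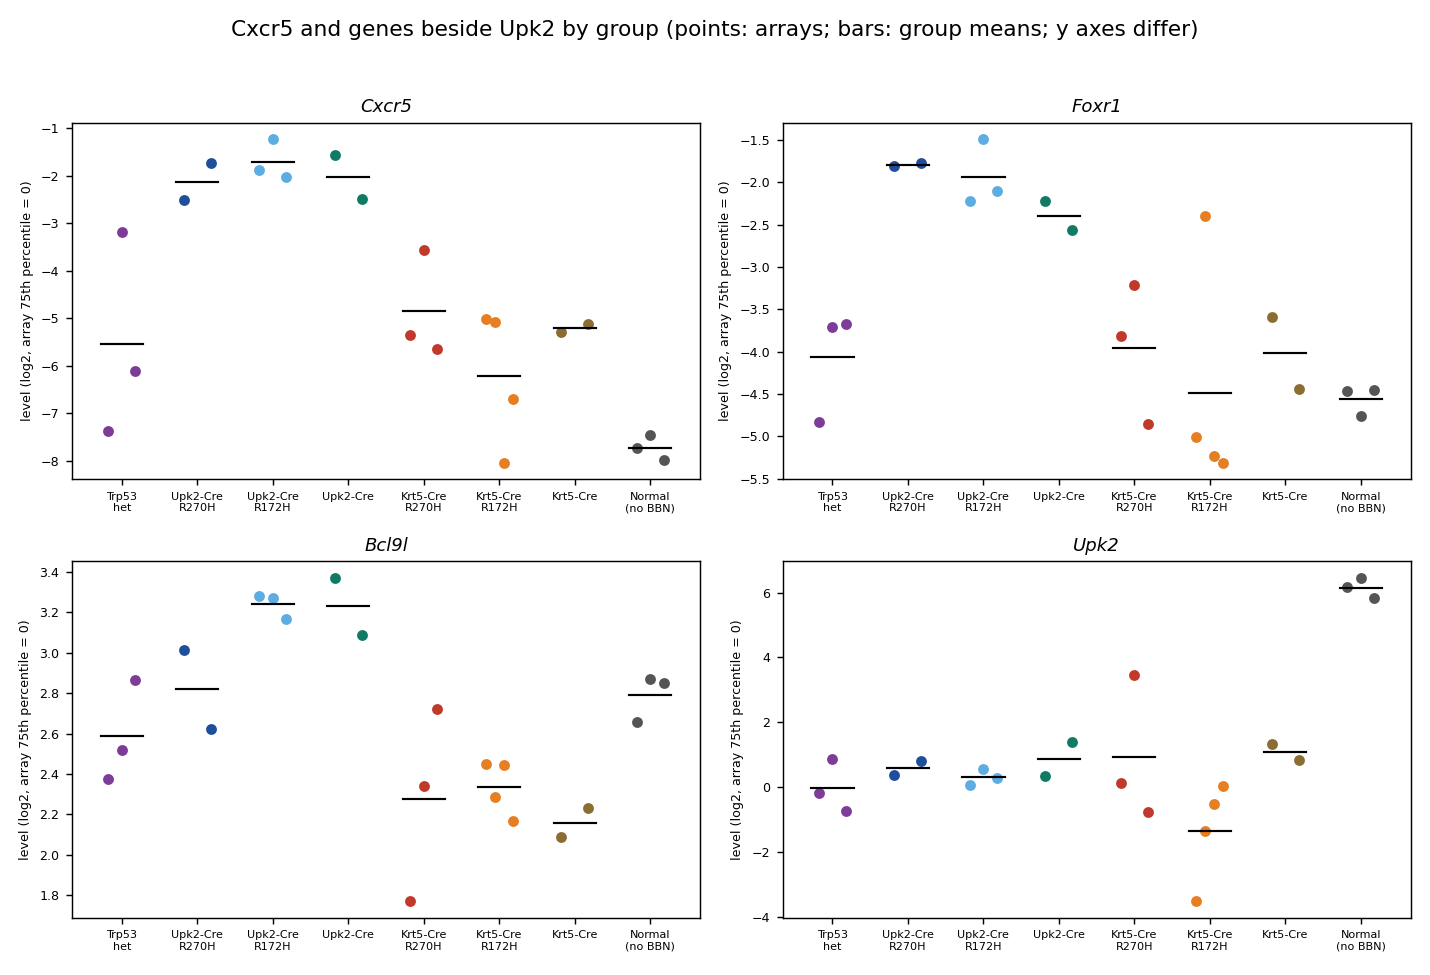
Level of Cxcr5, Foxr1, Bcl9l and Upk2 on each array by group (points, arrays; bars, group means; log2 with the array's 75th percentile at 0; the axes differ). Cxcr5 lies between -2.51 and -1.22 on the 7 Upk2-CreERT2 arrays and between -8.04 and -3.57 on the 9 Krt5-CreERT2 arrays, whereas Upk2 averages 0.55 and -0.05 in them.

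Whether a ligand and its receptor varied together was examined over the 19 BBN arrays for the 10 pairs with both genes tested. After adjustment over the 10 pairs Cxcl5 with Cxcr2 (Pearson r = 0.656, permutation adjusted p = 0.0127; Spearman rho = 0.698, adjusted p = 0.0114) and Ccl19 with Ccr7 (r = 0.741, adjusted p = 0.00310; rho = 0.668, adjusted p = 0.0114) passed by both measures. By rho alone Ccl20 with Ccr6 (adjusted p = 0.0433) and Ccl2 with Ccr2 (adjusted p = 0.0486) were among the pairs that passed too, at r of 0.482 and 0.505 (permutation adjusted p = 0.0716 and 0.0696). Without the 2 arrays farthest from the median ligand level r was 0.568 for Cxcl5 with Cxcr2 (adjusted p = 0.0867) and 0.618 for Ccl19 with Ccr7 (adjusted p = 0.0817). Neither passed, and by rho no pair did. For these pairs r was 0.583 and 0.849 within scanner A (11 arrays), and 0.690 and 0.633 within scanner B (8 arrays, exact test). By r only Ccl19 with Ccr7 in scanner A passed (adjusted p = 0.00330). Ccl20 with Ccr6 had r of 0.240 within scanner A and 0.178 within scanner B, where its rho was -0.048. Ccl20 and Ccr6 averaged -2.55 and -3.37 on scanner A and -4.76 and -4.67 on scanner B. Ccl2 with Ccr2 had r of 0.455 within scanner A and 0.563 within scanner B. Ccl19 was above background on 5 BBN arrays. Over the 19 BBN arrays r of the other pairs lay between -0.06 (Cxcl16 with Cxcr6) and 0.51 (Cxcl9 with Cxcr3). Cxcl13 with Cxcr5 was taken within drivers, because Cxcr5 falls into separate clusters, and gave r = 0.429 in 7 Upk2-CreERT2 arrays (exact p = 0.336, rho = 0.393) and r = 0.273 in the other 12 BBN arrays (permutation p = 0.392, rho = 0.049).

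**Figure D5:**
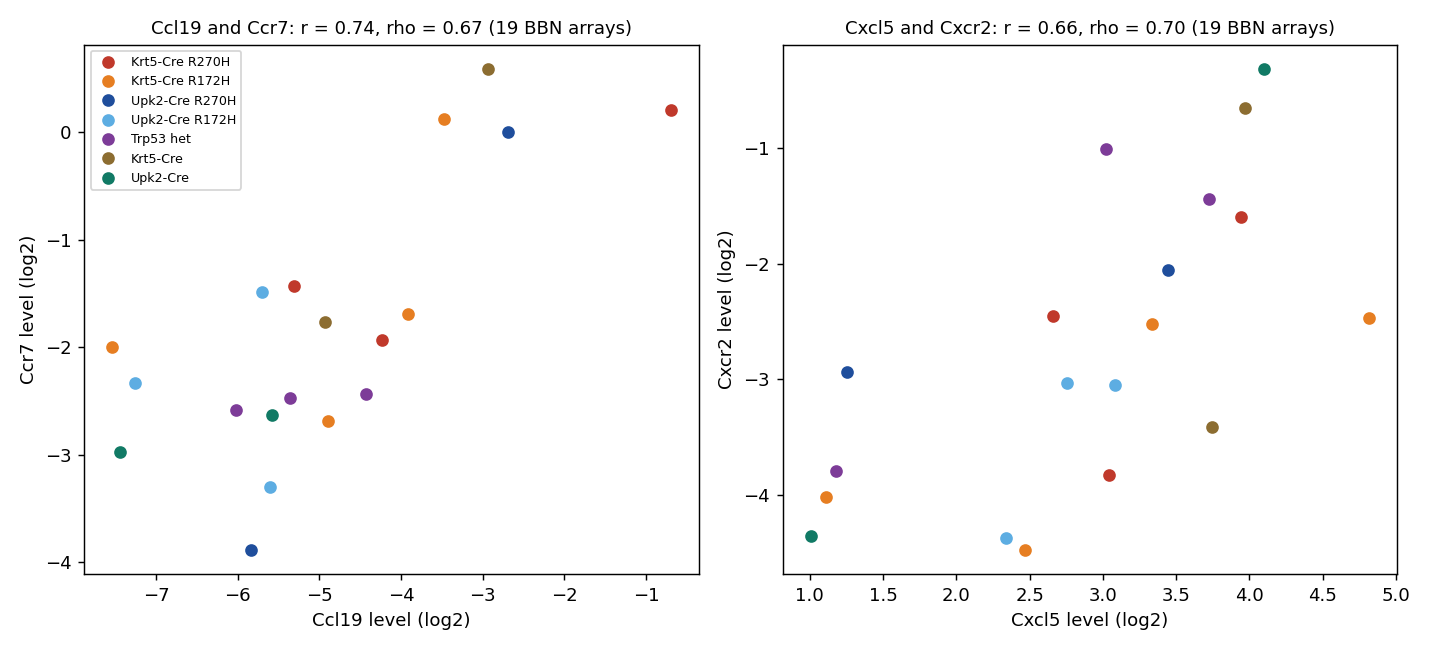
Receptor level against ligand level on 19 BBN arrays for Ccl19 with Ccr7 and Cxcl5 with Cxcr2 (log2, array 75th percentile at 0; 1 point per array). Both pairs rise together, with r of 0.741 and 0.656, and both miss the threshold without the 2 arrays farthest from the median ligand level.

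The genes most like Cxcl5, Cxcl3 and Cxcl9, the 3 members with the largest fitted differences, were sought among all tested genes by Pearson r over the 22 arrays, which the gap between BBN and normal arrays dominates. The normal levels of these 3 are bounds, so the place of Cxcl9 (at least 12-fold higher) ahead of Cxcl10, which was measured in normal tissue, is not settled. For Cxcl5 they were Ppbp (r = 0.98), Ankk1 (0.97) and Gm14137 (0.97), for Cxcl3 Gabra5 (0.91), Olfr63 (0.89) and Chrm1 (0.89), and for Cxcl9 Cxcl10 (0.93), Gm1966 (0.92) and Gvin1 (0.91).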

How the data were processed

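RNA of 22 whole bladders was read on 1-colour Agilent arrays. The deposited scanner files hold spot intensity, background-subtracted and detrended in the processed signal by Feature Extraction 11.0.1.1, per the file headers, whereas the submitters' processing notes name Feature Extraction 9.1 and limma. The authors' deposited table of log2 values (columns with a common maximum) was used as an alternative, but how it was made is not described there.

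The level was log2 of the processed signal minus the array's 75th percentile. Probes were named through RefSeq (GRCm38.p6): 32994 of 56605 had 1 symbol and 23611 none. The brightest probe stood for a gene, and genes well above background on at least 2 arrays were tested (17404). One mean per group (8 groups, 22 arrays) was fitted with limma 3.58.1 under R 4.3.3, with Benjamini-Hochberg adjustment over all genes (threshold 0.05); the fit was tested on simulated data. Python 3.11.15 and scipy 1.17.1 gave the permutation tests (100000 resamples, two-sided, exact under 10 arrays). Promoters came from RefSeq. Precision is limited by the number of arrays.

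Every member but 1 is named with its BBN difference (that member and 1 marker gene are not reported here); values by array are given for the 8 highest and 4 lowest called, and for the 2 of smallest p in each other comparison, and up to 4 genes of smallest p are named per list. Members and lists were chosen with earlier results of these data known.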

Additional observations from a re-analysis of the deposited data

Results flagged for a closer look

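In the 1 group of at least 4 arrays, Krt5-CreERT2; LSL-RFP; Trp53R172H/+, each of the 50 members was examined for an array far from the others. Cxcl13 in replicate 4 stood out, at -7.93 against -4.82 to -4.64 in the other 3 arrays, a gap that makes up 0.946 of the group's range. Chance alone flags about 1 in 20 such groups, and 1 of 50 was found.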

How the results depend on the processing

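For BBN against normal (20 members higher and 3 lower) the deposited normalized table called 12 of 32 members higher (20.6% of its 13936 genes), a stricter filter on dim probes 6 of 15 (22.7% of genes), and the slide as a random block 11 (16.5%). The stricter filter, the slide as a random block and the scanner as a block each called 1 member lower. Leaving out 1 array at a time gave 13 to 21 higher and 1 to 3 lower, with the lowest counts when a normal array was left out (14, 15 and 13 higher; 1 lower without normal replicate 1 and without normal replicate 3). The replicate block gave 21 higher and 3 lower and no member in any other comparison, and same-numbered arrays did not deviate together (r of -0.478 to 0.556, median 0.0275, over 66 pairs). Of the 20 members called higher 10 were called in every alternative that tested them, namely Ccl17, Ccl20, Ccl4, Ccr8, Cxcl17, Cxcl2, Cxcl3, Cxcl5, Cxcr2 and Cxcr5, and of the 3 called lower none was. Over all genes the counts were 4119 higher and 3313 lower, against 2525 and 2061 of 11105 genes under the stricter filter, 2557 and 2638 with the scanner as a block, and 2769, 2957 and 2654 higher and 2333, 2254 and 2405 lower without normal replicate 1, 2 and 3. Higher calls were 55.4% of all calls, 46.4% with quantile normalization, where the median over all genes was -0.01. For Krt5 against Upk2 mutants 0 members were called, and 1 (Cxcr5) with quantile normalization, with the scanner as a block, with arrays sharing an animal code averaged and, among fits that leave out 1 array (0 to 1), without Trp53+/- replicate 2. For Upk2-CreERT2 against Krt5-CreERT2, added after seeing the data, 1 was called higher with quantile normalization and with the slide and with the scanner as a block. Among its fits that leave out 1 array (0 to 1) only that without Trp53+/- replicate 2 called a member. The F-test over the BBN groups called 1 with the slide as a block. Ccl20 in R270H against R172H reversed to -0.13 with the slide and -0.011 with the scanner as a block. Of the 2 ligand and receptor pairs called, 0 were without the 2 farthest arrays, 1 within scanner A and 0 within scanner B. The cause of these shifts was not tested. The lowest signals well above background differ between scanners, which limits dim members such as Ccr3, Cxcr1 and Ackr4. Ccl20, Cxcl2 and Cxcr2 averaged -2.55, -2.10 and -2.15 over BBN arrays on scanner A. On scanner B, which read the normal arrays, they averaged -4.76, -4.23 and -3.52 over BBN arrays.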
